A study of Mus musculus with 2 samples.

Results

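The peaks of 4 genes were examined in an RNA immunoprecipitation experiment with an antibody against ELAVL2 in newborn mouse ovary: Tubb3, Tfap4, Ppp4c and Pou4f1. All distinct entries of the authors' deposited gene table that carry one of these symbols were taken, which gave 24 of the 28332 peaks called. Of these, 10 were paired with Pou4f1, 6 with Ppp4c, 5 with Tfap4 and 3 with Tubb3, and 22 of the 24 overlapped the gene they were paired with. The genes were chosen by the fold and the -log10 q of their peaks (q is the peak caller's p adjusted for multiple testing). Each gene had a peak that ranked high in the series by -log10 q, but not each ranked high by fold. The Ppp4c peak of largest -log10 q ranked 13th by that measure and 10229th by fold. Because of this choice, the folds, pileups and q values of the 4 genes are given as a description and carry no test.

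RNA immunoprecipitation (RIP) pulls a protein from a lysate with an antibody and compares the RNA that comes with it with the RNA of the whole lysate, the input. The study had 1 RIP sample and 1 input sample, both from ovaries at postnatal day 0 (P0), and the labels name no strain, allele or treatment. A lysate of 100 pooled newborn ovaries was incubated for 6 hours with beads carrying 5 ug of the antibody, and the input was 5% of that lysate. No pulldown with a control antibody was among the samples, and with 1 sample per arm no value below has a replicate check. Pooled ovaries hold oocytes, pregranulosa cells and other cells, and in such a lysate fewer cells of a type and less RNA per cell cannot be told apart. The aligned tags numbered 172711531 in the RIP and 210270620 in the input. After 1 tag per position and strand was kept, 13787676 RIP tags and 19479946 input tags remained. All peaks were called by the authors on 3 pooled treatment lanes against 3 pooled control lanes. The file header does not name the samples of these lanes, and treatment was taken to be the RIP and control the input, so the direction of every fold rests on this reading.

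ELAVL proteins, also called Hu proteins, bind U-rich and AU-rich stretches of RNA, mostly in introns and 3' untranslated regions, and act on the stability, translation and splicing of the transcripts they bind. ELAVL2 is found in neurons and in germ cells. The 4 genes encode unlike proteins. TUBB3 is a beta-tubulin of microtubules, best known as a neuronal marker. TFAP4 (AP-4) is a basic helix-loop-helix leucine zipper transcription factor that binds E-boxes. PPP4C is the catalytic subunit of the serine/threonine phosphatase PP4. POU4F1 (BRN3A) is a POU homeodomain transcription factor known from sensory neurons.

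Each peak comes with a pileup, which is the number of overlapping RIP tags at its summit, and a fold enrichment, which is the pileup plus 1 over the local input level plus 1. The input level follows from these values. It turned out to be a whole number of input tags multiplied by the library scaling of 0.708, to within 0.002 tags, for 21 of the 24 peaks when tags were counted in a window of 50 bp. For 2 peaks it was a whole number in a 1000 bp window, and for 1 peak in a 10000 bp window. The peak caller takes the highest of these estimates as background, so the input can be stated as tags. A second ratio without the pseudocount was computed from RIP and input tags, with an exact 95% interval from the binomial split of the tags between the libraries. These intervals cover counting error only. An input count from a wider window narrows the interval, as it takes the average of that window as the input at the peak. Tags from amplified RNA are not independent molecules.

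Tubb3 (ENSMUSG00000062380, chromosome 8, 123411424 to 123422015, plus strand, mm10) had its 3 peaks together at the 3' end of the gene. The strongest, at 123421750 to 123421981, had 43 RIP tags against 4 input tags and a fold of 11.5, with its summit 95 bp from the annotated 3' end. Its ratio without the pseudocount was 15.2 (exact 95% interval 5.52 to 58.3). No other peak of the 919 with exactly 4 input tags had a higher pileup, and their median was 16. The other 2 Tubb3 peaks were much weaker. The one at 123421449 to 123421506 had 22 RIP tags against 9 input tags, a fold of 3.12 and a ratio of 3.45 (1.53 to 8.52). The one at 123421116 to 123421167 had 15 RIP tags, an input of 69 tags in the 1000 bp window, a fold of 4.65 and a ratio of 6.14 (3.26 to 10.8). The input at the strongest peak was thus lower than at its neighbour 526 bp from the 3' end, while its RIP pileup was higher. Against the peak 869 bp from the 3' end, the scaled input level of the strongest peak was slightly higher (2.83 against 2.44, from unlike windows). The ratio intervals of the 3 peaks overlap, and differences between the peaks were not tested.

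All 3 Tubb3 peaks were also paired with Gm20388, a gene model of 4435 kb in the authors' deposited table that contains the whole of Tubb3 and was overlapped by 27 further peaks. No Tubb3 peak was therefore paired with Tubb3 alone. Among all peaks that overlapped a gene, 8.69% overlapped 2 or more. In the RefSeq gene table of the same assembly (GRCm38.p6), Tubb3 was the only gene at these 3 positions.

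Tfap4 (ENSMUSG00000005718, chromosome 16, 4544661 to 4559720, minus strand) combined a broad 3' end peak with smaller peaks further up the gene. The peak at 4544680 to 4545137 was 458 bp long and had 80 RIP tags against 19 input tags, with its summit 160 bp from the 3' end. Its fold was 5.61 and its ratio 5.95 (3.57 to 10.4). No other of the 475 peaks with 19 input tags had a higher pileup, and their median was 36. The largest fold in Tfap4 was elsewhere, at 4547264 to 4547340, 2634 bp from the 3' end. There 21 RIP tags stood against 442 input tags in the 10000 bp window, a scaled level of 1.56 tags per 50 bp. This gave a fold of 8.58 and a ratio of 13.4 (8.23 to 20.8). Its interval rests on the 10000 bp window, so its width cannot be set beside those from 50 bp. The order of these 2 peaks thus differs by measure: the 3' end peak had the larger pileup and -log10 q (27.3 against 12.4), and the upstream peak the larger fold.

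The remaining 3 Tfap4 peaks had pileups of 12, 25 and 30. The farthest from the 3' end, at 6697 bp, had 12 RIP tags against 2 input tags, and its ratio of 8.48 had a wide interval (1.89 to 78.0). The peak with 30 RIP tags lay on 16 input tags and had the lowest fold of the gene, 2.52. Of the 5 Tfap4 peaks, 4 were also paired with Srl, the sarcalumenin gene next to it, whose nearest edge was 2863 to 5447 bp away. Srl held no peak inside its own body and no peak that was not shared with Tfap4. With peaks paired to Tfap4 alone, 1 peak was left and the largest fold was 5.38.

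Ppp4c (ENSMUSG00000030697, chromosome 7, 126785866 to 126792496, minus strand) had the highest median input level of the 4 genes, 18.4, and the lowest median fold, 2.68. Its 6 peaks stood on 19 to 29 input tags, that is, scaled levels of 13.4 to 20.5, and had pileups of 37 to 87. The strongest, at 126785922 to 126786180, had 87 RIP tags against 27 input tags, with its summit 104 bp from the 3' end. Its fold was 4.38 and its ratio 4.55 (2.93 to 7.30). By pileup it ranked 19th of all peaks in the series, and none of the 327 with 27 input tags was higher. The other 5 peaks had folds between 2.51 and 3.05, so 1 of the 6 reached a fold of 4.

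With a single tag allowed per position and strand, and an extension of 50 bp, no pileup can pass 100. At the input of the strongest Ppp4c peak the largest fold that could be written was 5.02, and the observed numerator stood at 87.1% of that ceiling. For the strongest Tfap4 peak the ceiling was 6.99 (80.2% reached), and for the strongest Tubb3 peak 26.4 (43.6% reached). The folds of Ppp4c and Tubb3 are for this reason not on the same scale. The ratio intervals of their strongest peaks (2.93 to 7.30 and 5.52 to 58.3) overlap, and the difference was not tested. These intervals take no account of the ceiling, so their overlap does not show that the ratios are alike.

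One Ppp4c peak lay at the other end of the gene. The peak at 126792061 to 126792150 had its summit 363 bp from the 5' end, with 37 RIP tags on 20 input tags, a fold of 2.51 and a ratio of 2.61 (1.48 to 4.75). It was the only one of the 22 peaks inside the genes whose summit fell in the first 10% of its gene. The 2 peaks nearest to the 3' end were also paired with Tbx6, a T-box gene that ends 361 and 827 bp from them and held no peak inside its own body. The other 4 were paired with Ppp4c alone, and their largest fold was 3.05.

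Pou4f1 (ENSMUSG00000048349, chromosome 14, 104461676 to 104467999, minus strand) differed from the other three in having a dense series of peaks in mid-gene and none at the 3' end. Its 8 inside peaks covered 1815 bp, or 28.7% of the gene body, against 11.7% in Ppp4c, 4.95% in Tfap4 and 3.23% in Tubb3. The median over the 6158 genes overlapped by a peak was 0.635%, and Pou4f1 ranked 97th among them. This share depends on gene length, which was 6324 bp in Pou4f1 against a median of 38737 bp in those genes. The summits spread over 2429 bp, with gaps between neighbouring peaks of 38 to 397 bp. When peaks within 100 bp of each other were counted as 1, they formed 2 stretches.

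From the 5' to the 3' end, the 8 Pou4f1 pileups were 16, 29, 38, 46, 32, 31, 40 and 21 RIP tags. The input was 4 tags at the first and second peak. It was 11, 10, 13, 15 and 9 tags at the third to the seventh, and 83 tags per 1000 bp at the eighth. The folds were 4.44, 7.83, 4.44, 5.82, 3.23, 2.75, 5.56 and 5.59. The pileup was highest at the fourth peak, 104463869 to 104464197, with a ratio of 6.50 (3.24 to 14.4) and the largest -log10 q inside the gene, 16.6. The fold was highest at the second, 104464992 to 104465195, with 29 RIP tags on 4 input tags and a ratio of 10.2 (3.60 to 40.1). The lowest ratio, 2.92 (1.53 to 5.82), was at the sixth peak, where the input was highest. The ratio intervals of these 3 peaks overlap, and differences between the peaks were not tested.

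The largest fold paired with Pou4f1 did not come from the gene. The peak at 104336998 to 104337068 lay 124608 bp downstream, with 21 RIP tags on 1 input tag and a fold of 12.9. A second distant peak, at 104396945 to 104396995, lay 64681 bp downstream, with 8 RIP tags on 1 input tag and a fold of 5.27. With 1 input tag the ratios are poorly bounded: 29.7 (4.77 to 1227) and 11.3 (1.52 to 502). The authors' deposited table paired these 2 peaks with no gene but Pou4f1. In the RefSeq table both lie inside D130079A08Rik, a long noncoding RNA gene (chromosome 14, 104288433 to 104459336) that lies wholly outside Pou4f1 and has no entry under this symbol in the authors' table. These were the only peaks inside the RefSeq body of D130079A08Rik.

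**Figure D1:**
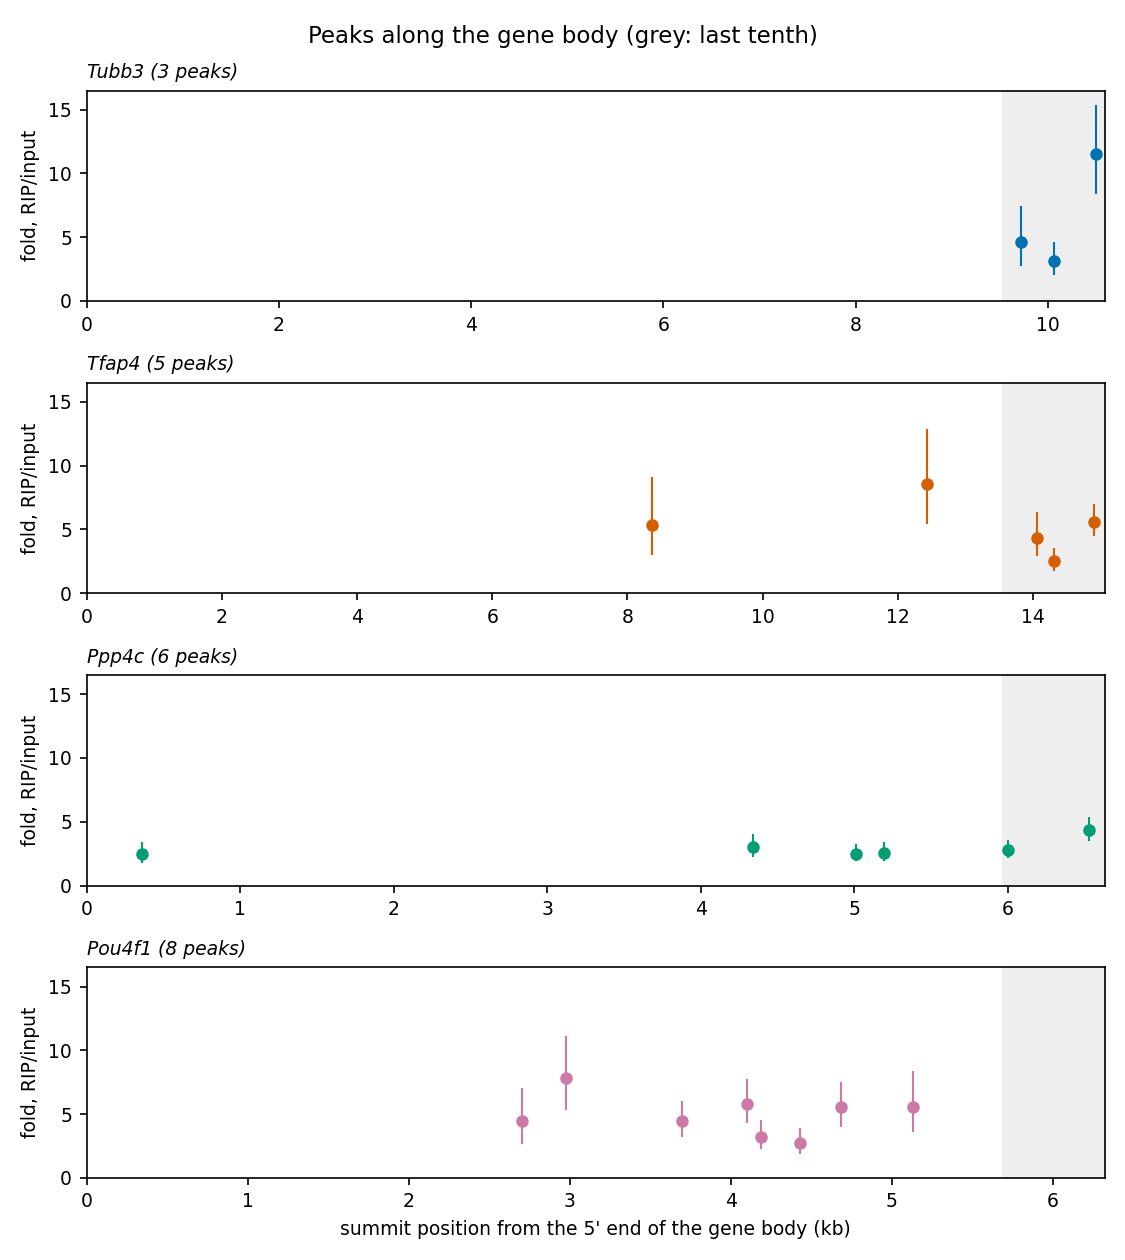
Fold enrichment (y axis, RIP over input) of each of the 22 peaks inside the 4 genes against the distance of its summit from the 5' end of the gene body in kb (x axis, a panel per gene). Bars are exact 95% Poisson intervals of the RIP pileup alone, and grey marks the last 10% of the gene. The Tubb3 peaks all lie in grey, those of Pou4f1 all outside it, and the Ppp4c peaks include one near the 5' end.

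Position was not used to choose the genes. Across the series, 46.6% of the 19371 peaks that overlapped exactly 1 gene had a summit within the final 10% of that gene. On the same basis the number was 5 of 19 in the 4 genes: 3 of 5 in Tfap4, 2 of 6 in Ppp4c and 0 of 8 in Pou4f1. All 3 Tubb3 peaks also lay in the last 10% of Tubb3, but each overlapped Gm20388 as well and so stands outside that basis. Peaks of 1 gene share a transcript and are not independent, so these counts were not tested. The strongest peaks by -log10 q in Tubb3, Tfap4 and Ppp4c had summits 95, 160 and 104 bp from the annotated 3' end, while that of Pou4f1 was 2224 bp from it. Taking the peak midpoint or the RefSeq gene body gave the same counts for each gene. Positions are along the whole gene body with introns, since no exon annotation was used here, and the peaks carry no strand.

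**Figure D2:**
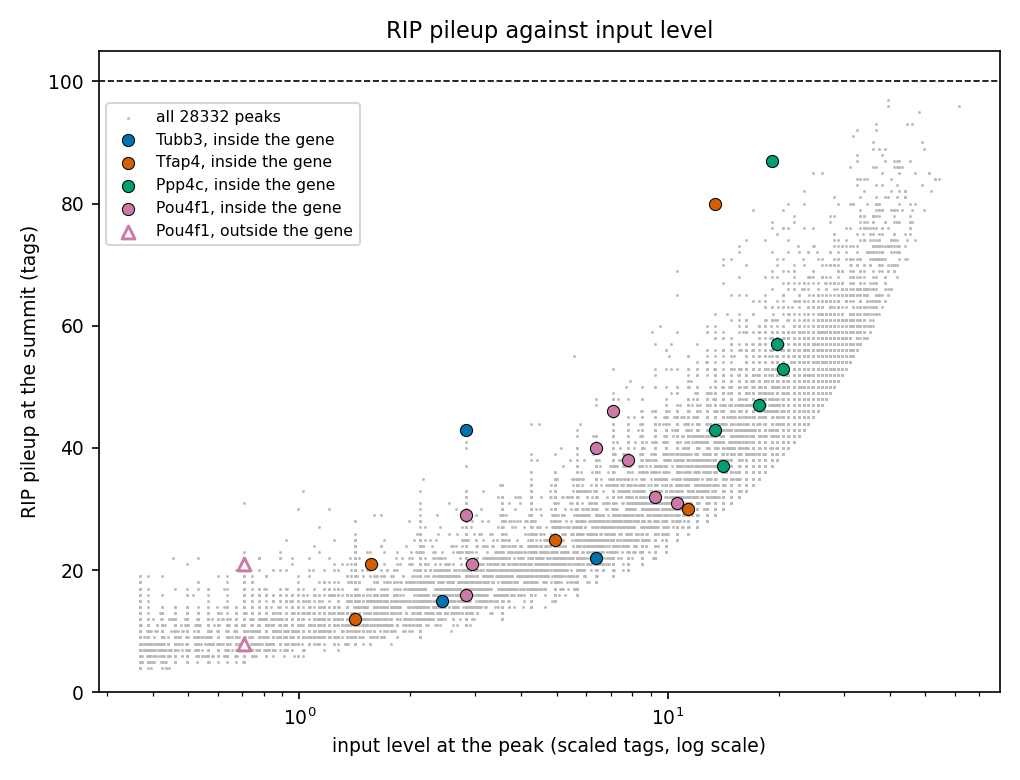
RIP pileup at the summit (tags, y axis) against the input level (scaled tags, log x axis) for all 28332 peaks in grey and the 24 peaks of the 4 genes in colour. The dashed line is the largest pileup possible, 100. The strongest peaks of Tubb3 (43 tags), Tfap4 (80) and Ppp4c (87) stand at the upper edge of the grey cloud, each at a different input level.

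Against all peaks, the 24 were not uniformly high. A fold of at least 4 was reached by 15 of the 24 and by 42.7% of all peaks. A pileup of at least 20 was reached by 20 of the 24 and by 58.3% of all peaks, and a -log10 q of at least 20 by 3 of the 24 and by 0.12% of all peaks. These values chose the genes, so nothing is read from the difference. The median fold of the 22 inside peaks was 4.41, against 3.59 over all peaks, and their median pileup was 34.5 against 24. By number of peaks inside the gene, Pou4f1 (8) ranked 637th of the 6158 overlapped genes, Ppp4c (6) 1055th, Tfap4 (5) 1365th and Tubb3 (3) 2202nd, and 47.7% of these genes had at least 3.

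**Figure D3:**
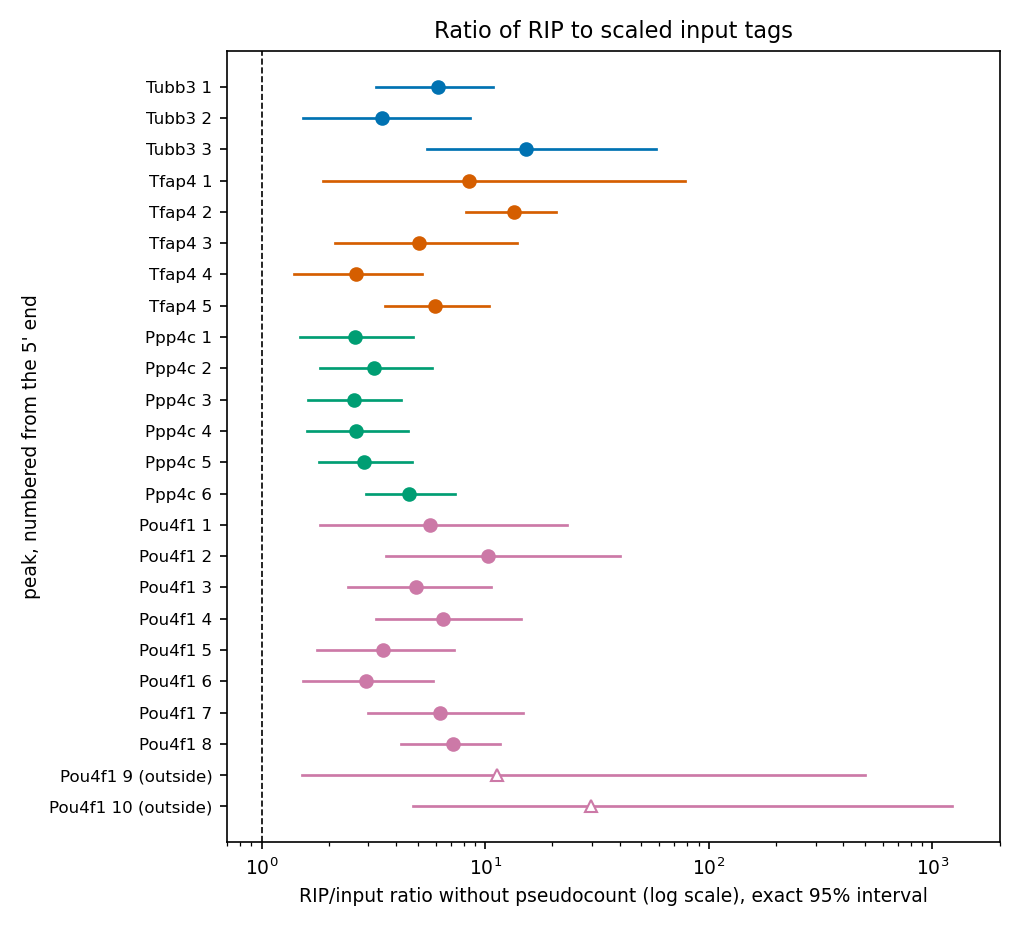
Ratio of RIP tags to scaled input tags without pseudocount (log x axis) for each of the 24 peaks, numbered from the 5' end of its gene, with exact 95% intervals for counting error. Open triangles are the 2 peaks outside Pou4f1, whose intervals reach 502 and 1227 because they rest on 1 input tag. All intervals lie above the dashed line at 1, as only called peaks are shown.

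Genes related to the 4 were then compared as lists, which include the members. As the members were chosen by their folds, their own overlap and rank within a list are no result. Of all RefSeq protein-coding genes, 23.4% were overlapped by a peak, and the median largest fold of the overlapped genes was 4.38. Tubb3 was the only one of 20 tubulin genes, and of 8 beta-tubulin genes, that was overlapped by a peak. The tubulins are closely similar in their coding parts, and how the authors placed reads matching several of them is not stated in the sources used. Of 24 genes of tubulin folding and microtubule assembly 8 were overlapped. Among them were the tubulin cofactor Tbcd (7 peaks, largest fold 8.96), the microtubule-associated protein gene Map4 (8 peaks, 8.77) and the gamma-tubulin complex gene Tubgcp5 (1 peak, 8.69 at a pileup of 12).

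Of 26 genes listed for subunits and regulators of PP4, PP2A and PP6, among them the pseudogene Ppp4r1l-ps, 11 were overlapped. This was 42.3% with Ppp4c counted, against 23.4% of all RefSeq protein-coding genes. Their median largest fold was 4.38. The largest was in Ppp2r5e, a PP2A regulatory subunit (9 peaks, 6.98 at a pileup of 12), followed by Ppp2r2b (5.27 at a pileup of 8) and Ppp6r2 (4.97 at a pileup of 11). Among the 6 PP4 subunit genes, 4 were overlapped: Ppp4c, the regulatory subunit genes Ppp4r1 (1 peak, 4.55) and Ppp4r2 (6 peaks, 3.07), and Ppp4r3a (3 peaks, 3.19), while Ppp4r3b and Ppp4r4 were not. These PP4 genes were named after their values were seen. The highest pileup in the gene was 87 in Ppp4c, 73 in Ppp4r2, 51 in Ppp4r3a and 10 in Ppp4r1.

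Of 15 POU factor genes 4 (26.7%, with Pou4f1 counted) were overlapped, against 23.4% of all RefSeq protein-coding genes. All 4 had a largest fold of at least 4, which 57.2% of all overlapped genes reached. Pou4f1 led with 7.83, close to Pou2f1 (OCT1, 11 peaks, 7.68 at a pileup of 23), then Pou3f1 (5 peaks, 6.14 at a pileup of 11) and Pou2f3 (4 peaks, 5.86 at a pileup of 9). Among peaks with a pileup of at least 20, the largest fold was 3.34 in Pou3f1 and 4.85 in Pou2f3. The other two class IV genes, Pou4f2 and Pou4f3, held no peak. Of 22 basic helix-loop-helix leucine zipper genes 12 were overlapped, with a median largest fold of 5.14. Tfap4 led with 8.58, followed by Mlxipl (8.20 at a pileup of 13, at a peak that overlapped 2 genes) and Mga, a MAX partner (12 peaks, 6.72).

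Tubb3 and Pou4f1 are known from neurons, so neuronal markers were counted beside ovarian ones. Of all RefSeq protein-coding genes, 23.4% were overlapped, and the lists below are too short to read a difference from that share. Of 15 neuronal genes 6 (40%) were overlapped, with a median largest fold of 6.94. They were Isl1 (9 peaks, 10.2 at a pileup of 13), Syt1 (21 peaks, 7.61 at a pileup of 12), Ntrk2 (7.31 at a pileup of 9), Snap25, Nefm and Map2. Those that held none included Rbfox3, Stmn2, Nefl, Nefh, Prph, Gap43 and Dcx. At the peak of largest fold, the scaled input level of the 6 overlapped neuronal genes was 0.369 to 1.25, against 2.83 in both Tubb3 and Pou4f1. The value of 0.369, found in Isl1, Ntrk2, Snap25 and Nefm, is the genome-wide background of the peak caller and not a count of input tags. Of 11 oocyte markers 6 (54.5%) were overlapped, with a median largest fold of 4.57. Kit had 4 peaks (10.2 at a pileup of 13, and 2.05 among its peaks with a pileup of at least 20). Bmp15 had 5 peaks (5.13) and Lhx8 15 peaks (4.83 at a pileup of 17). Dazl had 12 peaks (4.31 at a pileup of 43), Sycp3 7 peaks (3.53 at a pileup of 25) and Ddx4 1 peak (2.46 at a pileup of 38). Figla, Nobox, Sohlh1, Gdf9 and Zp3 held no peak. Of 8 pregranulosa markers only Fshr was overlapped (7.31 at a pileup of 9). A gene without a peak can still be expressed, since peaks mark RIP over input and not expression. The part of neuronal or other cells in the Tubb3 and Pou4f1 peaks was not tested.

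**Figure D4:**
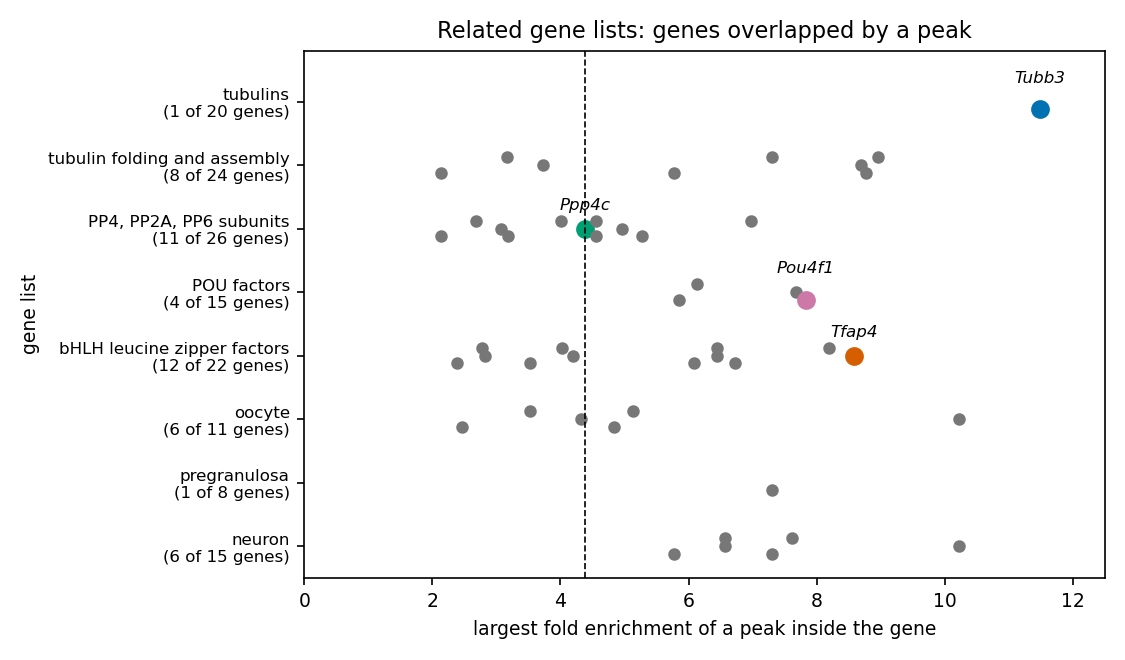
Largest fold enrichment of a peak inside each gene (x axis) for the genes of 8 lists that were overlapped by a peak, with the number overlapped out of all genes of the list beside its name. Coloured points are the 4 genes, and the dashed line is the median of all overlapped genes, 4.38. Tubb3 is alone among the tubulins, while Ppp4c lies at the line within its list.

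Other genes had strongest peaks of much the same size. For each of the 4, the 3 nearest genes were taken by distance in log2 fold and log2 pileup between peaks of largest -log10 q, over 5022 or 5023 genes of 1 RIP and input comparison. For the compared genes only peaks that overlapped exactly 1 gene were used, a limit that the Tubb3 peak itself does not meet. Nearest to Tubb3 were 6430573P05Rik (fold 10.7, pileup 40), Inadl (8.58, 44) and Fryl (10.2, 31). Nearest to Tfap4 were Rbfox2 (6.03, 69), Elavl1 (4.75, 71) and Usp32 (5.68, 65). Nearest to Ppp4c were Rab21 (4.45, 79) and Bpnt1 (4.34, 74). For Pou4f1, Dcun1d3 and Wdr70 had exactly the same fold and pileup as its strongest inside peak, 5.82 and 46, and Bard1 was next (5.89, 48). The summits of the 3 genes nearest to Tfap4 lay at 91.0 to 99.9% of their gene bodies from the 5' end. Those of the 3 nearest to Tubb3 lay at 31.4 to 65.2%, away from the 3' end where the Tubb3 peak lies.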

How the data were processed

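The build was mm10 and the tools were MACS2 (version 2.1.0.20140616), TopHat2 (version 2.0.8b), FastQC (version 0.11.2) and CASAVA (version 1.8.2), according to the submitters' processing notes. Per the file headers, the authors called peaks on 3 pooled treatment and 3 pooled control lanes, read here as RIP and input, with a q cutoff of 0.05, no shift model, extension to 50 bp, and local backgrounds of 1000 and 10000 bp. The signal used is the deposited pileup, and the fold is the authors' ratio with a pseudocount of 1. The -log10 q values were deposited by the authors and only rank and filter peaks. The sources used here do not give how the authors paired peaks with genes. Of 85730 entries of the gene table, 42176 were exact repeats and were dropped.

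The input level was computed as (pileup + 1)/fold - 1 and divided by the library scaling to give input tags. The tolerance was 0.002 tags in 50 bp, 0.004 in 1000 bp and 0.04 in 10000 bp. On 5000 simulated peaks, window and tags were recovered for 99.9%. Simulated counts in the wider windows were drawn so as not to be whole in a smaller one, and no genome-wide background level was simulated. The recovery thus checks the arithmetic only. A wider-window count that happened to be whole in 50 bp would be read as a 50 bp count. The Poisson -log10 p recomputed from the level differed from the deposited value by at most 5.62e-05. Symbols were matched to RefSeq directly or by a unique older symbol. The software was scipy 1.17.1, pandas 2.3.3 and numpy 2.4.6 under Python 3.11.15, with matplotlib 3.10.9 for the plots.

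The 4 genes, the lists and the rules were chosen with earlier results of these data known. Named genes are the 4 genes, genes paired with their peaks, the 3 of each list with the largest fold inside the gene and the 3 nearest to each gene in log2 fold and log2 pileup. Some genes that these rules name are left out of the text. Any other list member was named as an example with its value in view. Alternatives were stricter q, pileup and fold thresholds, merged peaks, other overlap and pairing rules, RefSeq gene bodies, the fold without pseudocount and the peak midpoint. No sequences of the peaks were used here.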

Additional observations from a re-analysis of the deposited data

How the results depend on the processing

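Over the 4 genes, 51 alternative values were computed for the number of peaks inside the gene, the largest fold inside it and the number of peaks in the last 10%. Of these, 44 stayed within 1.5 times the count or within the Poisson interval of the fold, and 7 did not. Some of the 44 could not move. Each peak of largest fold already had a pileup of at least 20, and only Pou4f1 had paired peaks outside its body. The 44 are thus no measure of robustness. With peaks paired with exactly 1 gene, the count was 0 in Tubb3 and 1 in Tfap4, and the largest fold was 5.38 in Tfap4 and 3.05 in Ppp4c. Tubb3 then had no fold. Without the pseudocount the largest Tfap4 fold was 13.4. With a fold of at least 4, 1 Ppp4c peak was left. With peaks within 100 bp counted as 1, Pou4f1 had 2. No paired analysis was possible because there was 1 RIP and 1 input sample, and leaving out a replicate was not possible for the same reason. Among ratios with input counted in 50 bp, those on 1 to 4 input tags have the widest intervals relative to their value, and the pileup ceiling of 100 limits folds at high input.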

Other observations

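Further basic helix-loop-helix leucine zipper genes with a peak inside them had a wide range of input levels at their peak of largest fold. Max, the common partner of the MYC family, had 2 peaks with a largest fold of 2.39, at a pileup of 74 on an input level of 30.4. Mxd1, which encodes a MAX partner, had 9 peaks with a largest fold of 6.08 at a pileup of 38 on an input level of 5.41. Mxi1 and Tfeb each had a largest fold of 6.44 at a pileup of 10 on an input level of 0.708. These genes were named after their values were seen. Myc, Mycn and Mycl held no peak.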
